A study of Homo sapiens with 6 samples.

Results

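The ETS transcription factors described here are 10 genes, ELF3, EHF, ELF5, ELF1, ELF2, ELF4, ETS1, ETS2, ETV4 and ETV5, taken as every probe set whose annotated symbol is 1 of these names alone. They were represented by 31 of the 54613 probe sets that are not array controls, and by 10 of 19775 genes when each gene was represented by its brightest probe set. RNA came from HaCaT, a human epidermal keratinocyte line that became immortal without a transgene, kept in culture medium with serum. In the ambient pressure group 3 cultures served as control, and in the negative pressure group 3 cultures were held in an incubator under a gradient of 125 mmHg, each for 12 h. Both groups were of the same unmodified line, so the data describe 1 line and not skin. The titles call the 3 cultures of each group biological replicates. Values are log2 RMA signals, in which a difference of 1 is a doubling.

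ETS factors share a DNA-binding domain that reads a short GGAA core, and differ in the cells that make them and in how signals reach them. ELF3, EHF and ELF5 form an epithelial group found in differentiating epithelia such as the epidermis. ELF1, ELF2 and ELF4 are widely made relatives of the same subfamily, ETS1 and ETS2 are nuclear targets of the ERK kinase pathway, and ETV4 and ETV5 belong to the PEA3 group, whose genes are switched on by growth factor signalling through ERK.

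The members were chosen by family around ELF3, which was selected on its measured difference between the groups: it was already known from these arrays to be higher under negative pressure. Its values are therefore given as a description with no test. The other 9 genes were taken for their family, but with earlier results of these data known. Their p-values come from limma fits over all genes or all probe sets with Benjamini-Hochberg adjustment, and make no allowance for that knowledge.

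The arrays numbered 3 stood apart in both groups. Within a group, Pearson's r over probe sets was 0.996 for both pairs of replicates 1 and 2 and 0.989 to 0.991 for pairs that included replicate 3. Keratinocyte markers were bright except KRT16: of the 6 measured of 8 listed, 5 lay above the median gene mean, and KRT16 read 4.88 on average. Over the 6, the mean level ran from 9.95 to 9.98 on the ambient arrays and from 10.1 to 10.2 on the negative pressure arrays. None of the 6 passed in limma, where 2 had an unadjusted p under 0.05, against 2304 of all 19775 genes. DSG3, a desmosomal cadherin gene, stood at 0.63 (limma adjusted p = 0.153, with the replicate number as a block 0.0146) and the basal keratin gene KRT5 at 0.33 (adjusted p = 0.339), both without overlap of the groups. KRT14, KRT16 and SFN stood at 0.06, 0.01 and -0.14 with overlapping groups, and PERP at 0.12 without overlap. Of 14 markers of fibroblasts, endothelial cells, leukocytes and melanocytes, 1 passed the test, the endothelial cadherin gene CDH5, against 0.920% of all genes. CDH5 lay below the median gene mean, at percentile 42.7, and went from 4.81 to 4.01 (limma adjusted p = 0.0325). The mean level of the 3 endothelial markers ran from 4.55 to 4.92 at ambient and from 4.35 to 4.54 under negative pressure. Of these, PECAM1 stood at -0.13 and VWF at 0.03 with overlapping groups, so that the lower mean came mainly from CDH5. The part of these markers in the results below was not tested. As a sign of RNA quality, the ACTB control read at its 3' end exceeded that at its 5' end by 0.54 ± 0.25 at ambient and 0.69 ± 0.24 under negative pressure (SD, n = 3 each). For the GAPDH control the same difference was 0.18 ± 0.03 at ambient and 0.10 ± 0.06 under negative pressure. In RNA of whole cultures, fewer cells of a type and less RNA per cell cannot be told apart.

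ELF3, an epithelium-restricted activator of differentiation and inflammatory genes, was higher under negative pressure on all 3 of its probe sets. On 210827_s_at, its brightest probe set, the ambient cultures read 6.69, 6.60 and 6.83 and the negative pressure cultures 7.99, 7.87 and 8.61. On 201510_at they read 5.92, 5.89 and 5.26 against 6.99, 6.96 and 7.11. On 229842_at they read 5.69, 5.51 and 5.42 against 6.96, 7.11 and 7.22. On each of these probe sets every negative pressure array lay above every ambient array, and the gap between the groups was wider than the range within either. The log2 fold changes were 1.45, 1.33 and 1.55 (SE 0.19, 0.18 and 0.13), which correspond to 2.72-fold, 2.52-fold and 2.94-fold.

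**Figure D1:**
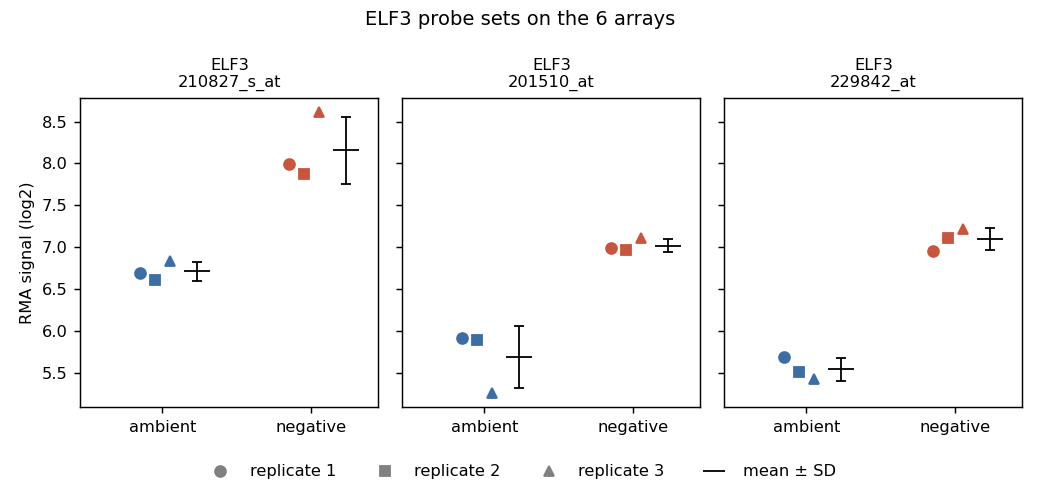
Log2 RMA signal of the 3 ELF3 probe sets (vertical axis) on 3 ambient and 3 negative pressure arrays, with symbols for the replicate number and black marks for mean ± SD. The negative pressure arrays lie above the ambient arrays on every probe set, by 1.33 to 1.55 on average.

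The difference between arrays of the same number was largest for replicate 3 on all 3 probe sets: 1.78, 1.85 and 1.80, against 1.29, 1.08 and 1.26 for replicates 1 and 1.26, 1.07 and 1.60 for replicates 2. The probe sets did not place the replicate 3 arrays alike. On 210827_s_at the replicate 3 value was the highest of its group in both conditions, whereas on 201510_at the ambient replicate 3 was the lowest of all arrays. With the pair of replicate 3 arrays set aside, a setting added once the data had been seen, the log2 fold changes were 1.28, 1.07 and 1.43.

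The start region of ELF3 is shown because ELF3 was the member with the widest separation, beside that of EHF, its epithelial relative, whose groups overlapped. The windows run from 250 bases before to 50 bases after a RefSeq start on GRCh38.p14, at chr1:202010337-202010636 (plus strand) for ELF3 and chr11:34624007-34624306 (plus strand, 1 of 2 starts listed) for EHF. Capitals mark the ETS core GGAA on either strand.
ELF3: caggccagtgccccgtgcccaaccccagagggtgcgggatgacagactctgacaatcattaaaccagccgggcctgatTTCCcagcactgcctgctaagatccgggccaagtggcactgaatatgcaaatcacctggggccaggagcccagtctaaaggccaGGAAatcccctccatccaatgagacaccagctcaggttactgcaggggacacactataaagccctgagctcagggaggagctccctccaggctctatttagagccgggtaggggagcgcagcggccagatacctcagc
EHF: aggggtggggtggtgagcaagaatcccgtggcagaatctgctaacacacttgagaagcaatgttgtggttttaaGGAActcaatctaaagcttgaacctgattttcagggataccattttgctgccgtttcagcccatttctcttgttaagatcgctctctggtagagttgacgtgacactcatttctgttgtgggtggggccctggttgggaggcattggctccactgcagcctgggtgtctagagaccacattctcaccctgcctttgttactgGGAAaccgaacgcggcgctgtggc

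Each window shown held 2 GGAA cores, and the other EHF window listed held none. The core occurs in 95.5% of 35116 RefSeq start windows of the same length. In the ELF3 window they lay at bases -172 to -169 and -88 to -85 from the start. The second lies inside a match to the NF-kB pattern GGGNNTTCC on the antisense strand, at -88 to -80, a pattern found in 6.58% of windows. The letters TATAAA stood at -34 to -29, as in 11.5% of windows on either strand. No match to the AP-1 pattern TGANTCA (7.71% of windows) or to CGGAAG, which contains the ETS core (19.5% of windows), was in the ELF3 window. The EHF window held none of these other patterns. A match describes letters only. RefSeq windows were matched for 7 of the 10 genes, not for ETS1, ETV4 or ETV5.

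EHF, like ELF3 made in differentiating epithelia, was bright and did not pass the test. Its brightest probe set, 225645_at, read 10.34, 10.35 and 10.06 at ambient and 10.25, 10.26 and 9.97 under negative pressure. The groups overlapped, and the difference was -0.09 (95% confidence interval -0.40 to 0.22). The other 5 EHF probe sets ranged from -0.17 to 0.28, all with overlapping groups, and 4 of those 5 were above 0. The widest interval bound among the 6 was 0.72, on 224189_x_at, a type of probe set whose probes can also bind other transcripts. The mean of all EHF probe sets stood at 0.06.

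ELF5, the third epithelial member, which directs secretory differentiation in mammary gland, was dim on both probe sets. On 220624_s_at the cultures read 2.78, 3.37 and 3.11 at ambient and 2.83, 3.24 and 3.61 under negative pressure. The groups overlapped, and the differences were 0.14 and 0.13 on its 2 probe sets, whose means lay at percentiles 38.5 and 19.1 of all probe sets. ELF5 and EHF are neighbours on chromosome 11, with no protein-coding gene between them in the RefSeq table.

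Among the widely made relatives, ELF1, ELF2 and ELF4 did not pass on any probe set, and for ELF2 and ELF4 the probe sets of the gene differed in whether the groups overlapped. On ELF2 203822_s_at the cultures read 6.76, 6.65 and 6.62 at ambient and 6.51, 6.61 and 6.42 under negative pressure, so that the groups did not overlap by a margin of under 0.01 (-0.16, limma adjusted p = 0.763). The other 2 ELF2 probe sets stood at 0.10 and 0.20 with overlapping groups.

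ELF4, an activator of interferon and innate defence genes, stood at 0.02 on its brighter probe set 31845_at (7.57, 7.73 and 7.76 against 7.74, 7.62 and 7.77). On 203490_at it read 6.72, 6.70 and 6.56 at ambient and 7.09, 6.73 and 7.29 under negative pressure. There the groups did not overlap, but only narrowly: negative pressure replicate 2 (6.73) lay just above ambient replicate 1 (6.72). The difference was 0.38 ± 0.16 (SE; limma adjusted p = 0.458).

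ELF1, which acts in lymphoid and many other cells, showed the replicate 3 arrays apart in opposite directions. On 212418_at both replicate 3 arrays (8.21 at ambient, 8.01 under negative pressure) lay below the other 4, which ran from 8.64 to 9.01. On 212420_at both (8.36 and 8.42) lay above the other 4, which ran from 6.73 to 7.60. The replicate 3 offsets were -0.70 and 1.11, larger than the pressure differences of -0.06 and -0.37, and the latter had a 95% confidence interval from -1.25 to 0.51.

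Both replicate 3 arrays lay outside the range of the other 4 on 12 of the 31 probe sets, 5 above and 7 below, against 30.1% of all probe sets. EHF had 2 such probe sets above and 2 below, and ELF1 1 of each. None of the ELF3 or ETV5 probe sets was among the 12, and of ETS1 only 224833_at was.

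**Figure D2:**
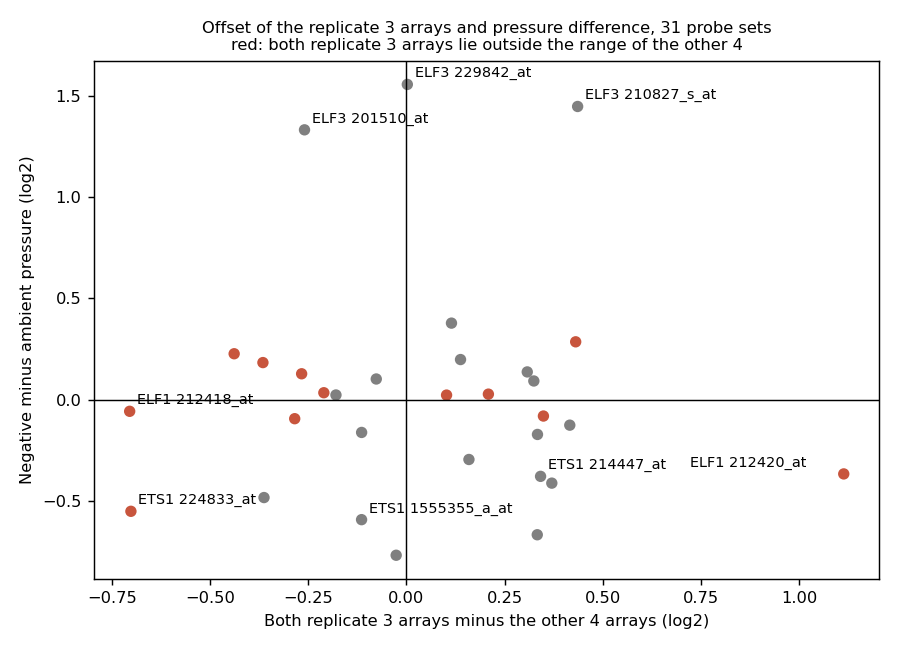
Each point is 1 of 31 probe sets: the mean of the replicate 3 arrays minus the mean of the other 4 (horizontal, log2) against negative minus ambient pressure (vertical, log2), with ELF3, ELF1 and ETS1 labelled and red where both replicate 3 arrays lie outside the range of the other 4. The ELF1 probe sets sit at -0.70 and 1.11 on the horizontal axis, while the ELF3 probe sets lie between -0.26 and 0.44 at pressure differences of 1.33 to 1.55.

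ETS1, a factor linked to migration and to holding keratinocytes undifferentiated, was lower on the mean of all 3 of its probe sets, and none passed the test. The brightest, 224833_at, read 9.65, 9.63 and 8.82 at ambient and 8.95, 9.07 and 8.43 under negative pressure. The groups overlapped because ambient replicate 3 lay below negative pressure replicates 1 and 2, although each negative pressure array was lower than the ambient array of its number. The difference was -0.55 (95% confidence interval -1.11 to 0.01).

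On ETS1 1555355_a_at the ambient cultures read 6.60, 6.49 and 6.09 and the negative pressure cultures 5.74, 5.71 and 5.95. The groups did not overlap, and the difference was -0.59 ± 0.15 (SE; limma adjusted p = 0.176). On 214447_at, with overlapping groups, it was -0.38. In the gene fit ETS1 had a limma adjusted p of 0.430, and with the replicate number as a block, which takes up the offset of the replicate 3 arrays, the adjusted p was 0.0183. Without both replicate 3 arrays ETS1 stood at -0.63 (limma adjusted p = 0.0355). Its size depended on which single replicate 3 array was set aside: -0.82 if the ambient one, -0.36 if the negative pressure one.

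ETS2, the close paralogue of ETS1, lay above 0 in value: its probe sets stood at 0.18, 0.02 and 0.03 with overlapping groups. On the brightest, 201328_at, the cultures read 7.99, 7.87 and 7.39 at ambient and 8.13, 7.86 and 7.80 under negative pressure. The 95% confidence interval ran from -0.21 to 0.57. The paralogues each lie beside another ETS gene, ETS1 beside FLI1 and ETS2 beside ERG. FLI1, named here for its position, stood at -0.30 (limma adjusted p = 0.761), and ERG was dim and stood at -0.10.

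ETV5, a PEA3 group factor, was lower on the mean of all 5 of its probe sets, and on all 5 each negative pressure array was lower than the ambient array of its number. On 230102_at the ambient cultures read 5.67, 5.78 and 5.60 and the negative pressure cultures 4.72, 5.07 and 4.96. This probe set fell by 0.77 on the log2 scale ± 0.13 (SE; 1.70-fold, limma adjusted p = 0.0476 over all probe sets). It was the 1 ETV5 probe set past the threshold. Its difference ran from -0.67 to -0.84 when any 1 array was left out, with adjusted p from 0.0679 to 0.236, so that the call was lost each time; without both replicate 3 arrays it stood at -0.83 (0.0468). Median centring (adjusted p = 0.0520) and trend with robust variance (0.0598) also ended it.

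On ETV5 203348_s_at the cultures read 6.75, 6.61 and 7.03 at ambient and 5.96, 6.09 and 6.34 under negative pressure. The groups did not overlap, and the difference was -0.67 (limma adjusted p = 0.121, with the replicate block 0.0208). On 203349_s_at, the brightest and the one used in the gene fit, they read 7.20, 7.23 and 6.99 against 6.85, 6.79 and 6.32, again without overlap.

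There the difference was -0.48, and ETV5 had an adjusted p of 0.251 in the limma gene fit, of 0.0332 with the replicate block and of 0.0463 when its probe sets were averaged. It stood at -0.32 without negative pressure replicate 3. Of the 2 remaining ETV5 probe sets, 216375_s_at stood at -0.41 with no overlap and the dim 231083_at at -0.30 with overlap.

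**Figure D3:**
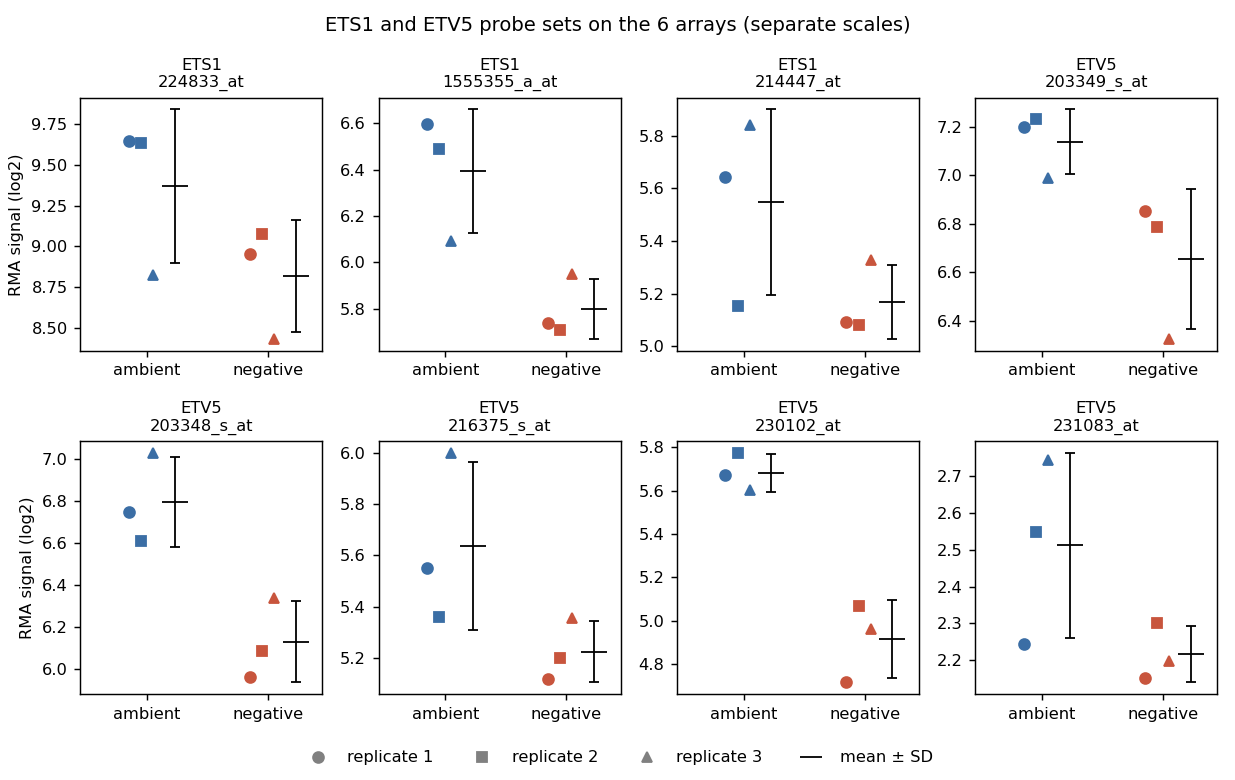
Log2 RMA signal (vertical, a separate scale per panel) of 3 ETS1 and 5 ETV5 probe sets on 3 ambient and 3 negative pressure arrays, with symbols for the replicate number and mean ± SD. The groups do not overlap on ETS1 1555355_a_at and on 4 of the 5 ETV5 probe sets, and ambient replicate 3 sits low on ETS1 224833_at.

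ETV4, the other PEA3 member measured, did not follow ETV5 by its values. Its brighter probe set 1554576_a_at read 6.85, 6.77 and 7.50 at ambient and 7.13, 6.61 and 7.00 under negative pressure. The groups overlapped on both probe sets, with differences of -0.13 (95% confidence interval -0.61 to 0.36) and -0.08. The difference between ETV4 and ETV5 was not tested. On 211603_s_at both replicate 3 arrays, 6.81 and 6.70, lay above the other 4, which ran up to 6.46.

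Counted together, 1 of the 10 genes passed an adjusted p of 0.05 in the limma gene fit, ELF3, against 0.920% of all genes. As ELF3 had been chosen for that difference, nothing is read from its own calls. None of the other 9 passed. The remaining counts of this paragraph are over those 9 genes and their 28 probe sets. With the replicate block 2 of the 9 passed, ETS1 and ETV5, both lower, against 4.94% of all genes. Without both replicate 3 arrays 1 of the 9 passed, ETS1, against 1.88% of all genes. Of the 28 probe sets 1 passed, ETV5 230102_at, against 0.480% of all probe sets. With the replicate block 3 of the 28 passed, ETV5 230102_at and 203348_s_at and ETS1 224833_at, against 2.27%. Without both replicate 3 arrays 2 of the 28 passed, ETV5 230102_at and ETS1 1555355_a_at, against 1.10%.

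The groups did not overlap on 10 of the 31 probe sets. Of these, 3 are of ELF3, which was chosen for its difference, so nothing is read from them. The rest, among the 28 probe sets of the other 9 genes, were 4 of ETV5 and 1 each of ELF2, ELF4 and ETS1. Over all probe sets the share was 15.0%. The median log2 fold change over the 10 genes, ELF3 included, was -0.08, beside 0.01 over all genes. Of the 10 genes 4 lay above 0, ELF3 among them, against 10567 of all 19775 genes.

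**Figure D4:**
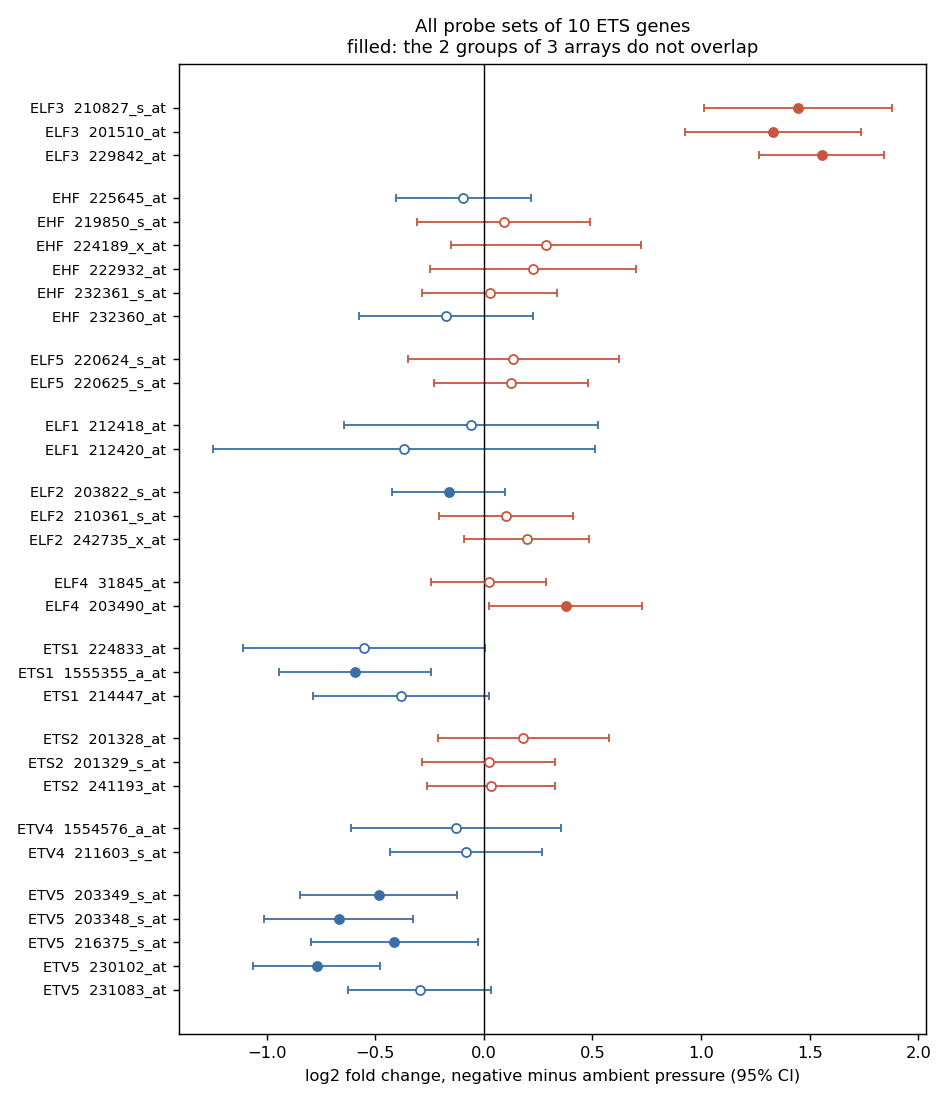
Log2 fold change, negative minus ambient pressure (horizontal, points with 95% confidence intervals from the limma fit over all probe sets), for the 31 probe sets ordered by gene. Filled points mark probe sets on which the groups of 3 arrays do not overlap: 3 of ELF3 and 1 of ELF4 to the right of 0, and 4 of ETV5 and 1 each of ETS1 and ELF2 to the left.

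Of the 18 remaining ETS family genes 17 were measured, and none passed the test in limma. The unadjusted p was under 0.05 for 1 of them, against 2304 of all 19775 genes. Their median was -0.08. ETV7, a repressor-type ETS factor made in response to interferon, read 5.10, 5.17 and 4.97 at ambient and 5.71, 5.53 and 5.63 under negative pressure. No overlap was seen (0.54 ± 0.12, SE; limma adjusted p = 0.0762, with the replicate block 0.0204). ELK3, a ternary complex factor that acts with SRF, stood at -0.44 (adjusted p = 0.447, block 0.0431), and its relative ELK4 at -0.41 (adjusted p = 0.510, block 0.0516). With the block 2 of 17 passed, against 4.94% of all genes.

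Of 16 measured genes reported as targets of ELF3 or EHF none passed in limma, and the median was -0.10. The unadjusted p was under 0.05 for 3 of them, against 2304 of all 19775 genes. Above 0 lay 6 of them, against 10567 of all genes. FLG, which encodes the epidermal barrier protein filaggrin, read 6.18, 6.18 and 5.74 at ambient and 5.60, 5.27 and 4.69 under negative pressure. Ambient and negative pressure arrays did not overlap (-0.85 ± 0.22, SE; limma adjusted p = 0.149, block 0.00328), and FLG was the 1 gene of the list past the threshold with the block, against 4.94% of all genes. The cornified envelope gene SPRR3 stood at -0.37 (adjusted p = 0.188) and the prostaglandin synthase gene PTGS2 at -0.40 (adjusted p = 0.355). The SPRR3 value is from 232082_x_at, and its dimmer probe set 218990_s_at stood at 0.08 with overlapping groups. The 4 brightest genes of the list, KRT8, LCN2, CDH1 and CLDN7, singled out after their values were seen, lay at 0.03, -0.13, 0.15 and 0.02. CDH1, the E-cadherin gene, and the dim ANGPT1 (0.28) were higher in value in all 3 pairs of arrays of the same number, with overlapping groups.

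Genes whose RNA follows ERK activity, the input shared by ETV4, ETV5, ETS1 and ETS2, were mostly lower in value. Of 16, 15 lay below 0 and 1 above it, whereas 10567 of all 19775 genes lay above 0. The median was -0.32, beside 0.01 over all genes. The mean level of the list ran from 7.37 to 7.55 on the ambient arrays and from 6.87 to 7.28 on the negative pressure arrays. FOSL1, an AP-1 subunit, was the 1 gene past the threshold in the main limma fit, against 0.920% of all genes. It was already known from these arrays to be lower when the list was written, so nothing is read from that count. FOSL1 is also among the 15 below 0, and enters the median and the mean level. The list as a whole was not tested, and it was chosen with earlier results of these data known. Of the 15, SPRED2 (-0.03), SPRED3 (-0.05) and LIF (-0.05) lay near 0. Near 0 the sign could change with the probe set: the other SPRED2 probe sets stood at 0.07 and 0.08, and the other SPRY1 probe set at -0.20. FOSL1 read 9.65, 9.72 and 10.07 at ambient and 9.07, 8.88 and 8.37 under negative pressure, a log2 difference of -1.04.

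DUSP6, the cytoplasmic phosphatase that turns off ERK, read 9.56, 9.63 and 9.09 at ambient and 8.89, 8.88 and 7.15 under negative pressure. The groups did not overlap, but negative pressure replicate 3 lay far below the rest (-1.12 ± 0.41, SE; limma adjusted p = 0.316, block 0.0106). Without both replicate 3 arrays DUSP6 stood at -0.71 (limma adjusted p = 0.0247).

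DUSP4, a nuclear phosphatase of ERK, read 6.71, 6.33 and 6.39 against 6.04, 5.99 and 5.86 (-0.52, limma adjusted p = 0.144, block 0.0262). Those values are from its brightest probe set. The dimmer 204014_at was 2.30-fold lower (limma adjusted p = 0.0253 over all probe sets), and the mean of the DUSP4 probe sets stood at -0.79 (limma adjusted p = 0.0156). PHLDA1, an early response gene, stood at -0.48 (adjusted p = 0.241, block 0.0361). With the block 4 of 16 passed as lower, the known FOSL1 among them, and none as higher. Over all 19775 genes 408 passed as lower with the block and 568 as higher. Setting aside negative pressure replicate 3 moved the list median to -0.18, setting aside the pair of replicate 3 arrays to -0.17, and the 1 call was lost when any single array was left out.

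**Figure D5:**
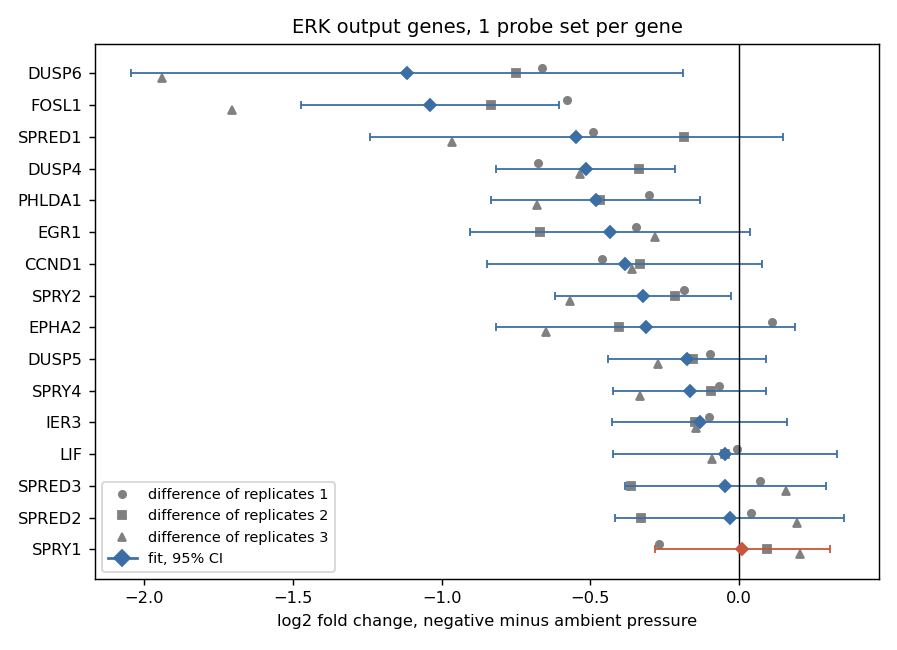
Log2 fold change, negative minus ambient pressure (horizontal), of 16 ERK output genes with 1 probe set each: diamonds with 95% confidence intervals from the limma gene fit, and grey symbols for the difference between arrays of the same number. All genes but SPRY1 lie below 0, and the replicate 3 difference is the lowest for DUSP6 and FOSL1.

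Protease and integrin genes lay on both sides of 0: of 11 measured 5 were above it, against 10567 of all 19775 genes. Their median was -0.06, and none passed in limma. The unadjusted p was under 0.05 for 2 of them, against 2304 of all genes. MMP10, a stromelysin, was dim and read 5.02, 4.36 and 4.71 at ambient and 3.93, 4.12 and 3.76 under negative pressure (-0.76, limma adjusted p = 0.101, block 0.0171). PLAU, the urokinase gene, lay in the other direction, with 9.10, 9.15 and 8.90 against 9.63, 9.81 and 9.23 (0.50, adjusted p = 0.237, block 0.0284). The groups did not overlap for either gene. TNC, which encodes the matrix protein tenascin-C, stood at -0.46 (adjusted p = 0.505).

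Of 13 measured partners and regulators of ETS factors none passed in limma, and the median was 0.01. The unadjusted p was under 0.05 for 3 of them, against 2304 of all 19775 genes. ATXN1L, which stabilises the repressor CIC that holds down ETV4 and ETV5, read 7.37, 7.43 and 7.20 at ambient and 6.83, 6.84 and 6.74 under negative pressure. Again there was no overlap (-0.53 ± 0.11, SE; limma adjusted p = 0.0801, block 0.0178), and with cyclic loess the adjusted p was 0.0419. Its other probe set, 226095_s_at, stood at 0.06. CIC itself stood at 0.13 (adjusted p = 0.901). DET1, part of the ubiquitin ligase that degrades ETV factors, stood at -0.34 (adjusted p = 0.389) and GABPB1, the partner of the ETS factor GABPA, at -0.32 (adjusted p = 0.406). Their other probe sets did not share this size: the dim DET1 1558348_at stood at 0.23 and GABPB1 204618_s_at at -0.04, both with overlapping groups.

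The genes whose values over the 6 arrays were most like those of ELF3, by Pearson's r among 9886 genes above the median gene mean, were CSF1, ACTR3C, ERP27, MBOAT7 and APBA3, with r from 0.994 to 0.995. CSF1, the macrophage colony-stimulating factor gene, read 6.73, 6.73 and 6.77 at ambient and 7.25, 7.19 and 7.40 under negative pressure. As for ELF3 210827_s_at, replicate 3 was the highest of each group. The 5 genes differed by 0.40 to 0.55, less than ELF3, and are given as a description, with no test. These points share the arrays and the separation of the groups, so that r describes mainly that separation. Among the other members r with ELF3 ran from -0.94 for ETV5 and -0.88 for ELF2 to 0.39 for ELF5.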

How the data were processed

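The authors deposited log2 values made by RMA, which corrects background, normalizes between arrays and summarises probes per probe set, in Affymetrix Expression Console 1.2, as the submitters' processing notes name it. Neither batches nor scan dates of the arrays are stated in the labels. Precision is limited by having 3 arrays a group. Values ran from 0.890 to 13.4.

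Symbols came from the platform annotation: 41091 probe sets had 1 symbol, 1801 several and 11721 none, and 62 are Affymetrix controls. Names were taken only from probe sets with 1 symbol. Genes were represented by the probe set of highest mean. Groups were compared in limma 3.58.1 (lmFit, eBayes; R 4.3.3), with no block and no filter, over 19775 genes or 54613 probe sets. Every adjusted p is from limma over all genes or all probe sets, from these fits unless a sentence names another setting, at a threshold of 0.05. The fit was tested on simulated data.

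The members and lists were chosen with earlier results of these data known. Named are all members with every probe set, genes past the threshold in each list filled up to 3 by smallest p, list genes whose call changed with the block, and the 5 genes most like ELF3. The lists of cell type markers were not filled up in this way, and all measured keratinocyte and endothelial markers are named. KRT8, CLDN7, CDH1, LCN2, ANGPT1, CIC and KRT5 were named after their values were seen, and FLI1 and ERG for their position. A listed gene without a probe set of that symbol alone was not analysed here.

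The groups share replicate numbers. Deviations from the group means correlated at 0.27, 0.27 and 0.53 between arrays numbered 1, 2 and 3, all over 0.1. By that rule the numbers pair the samples, so the fit with the block is given beside the results it changes, while the calls led with are from the fit without it. Ambient replicate 1 was closer to the negative pressure array numbered 2 (0.43), so the check rests mainly on replicate 3. Alternatives were the block, 3 normalizations, leaving out genes of low mean (13183 kept), trend and robust variance, other summaries per gene and leaving out arrays.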

Additional observations from a re-analysis of the deposited data

How the results depend on the processing

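The number of arrays is the main limit: leaving out 1 array gave 7 to 145 genes past the threshold over all genes instead of 182, and 0 to 1 of the 10 members, 0 to 3 of their probe sets and 0 genes of each list. ELF3 was the only member gene called in any of these fits, and it dropped out when any 1 array numbered 1 or 2 was omitted. As ELF3 was chosen for its difference, nothing is read from its calls here, whether kept or lost. Its log2 fold changes of 1.22 to 1.59 over the 6 omissions are a description. With the replicate block 3 member genes, 6 member probe sets, 2 further ETS factors, 1 reported target, 4 ERK output genes, 2 protease and integrin genes and 1 partner passed, against 1, 4, 0, 0, 1, 0 and 0. ELF3 and its 3 probe sets are counted among the members in both fits. The block also raised the calls over all genes from 0.920% to 4.94%, and over all probe sets from 0.480% to 2.27%. The block changed no call of a member other than ETS1 and ETV5. Cyclic loess and repeated quantile normalization each gave 1 partner, ATXN1L. Median centring gave 0 ERK output genes. The mean of all probe sets gave 2 members and 2 ERK output genes. Over all 19775 genes these 4 settings gave 240, 221, 146 and 185 calls, in the order named. Without both replicate 3 arrays, chosen after seeing the data, 2 members, 2 ERK output genes, 1 reported target, 1 protease and integrin gene and 1 partner passed, against 1.88% of all genes.

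Signs turned only for members near 0 that passed under none of the settings. ELF4 stood at -0.0084 with cyclic loess. EHF stood at 0.060 and ELF2 at 0.045 with the mean of all probe sets, and at 0.23 and 0.20 on their probe sets that varied most. Without both replicate 3 arrays ELF5 stood at -0.043, ELF1 at 0.016 and ETV4 at 0.060. When 1 array was left out EHF ran from -0.19 to 0.00022, ELF1 from -0.29 to 0.21, ELF4 from -0.039 to 0.068, ELF5 from -0.056 to 0.34 and ETV4 from -0.26 to 0.11. ELF5 was below the limit of the filter on means and has no value there.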
